A study of Homo sapiens with 9 samples.

Results

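The genes described here carry out and control the first steps by which cells break down the branched-chain amino acids leucine, isoleucine and valine. They are the 8 genes DBT, BCKDHA, BCKDHB, BCKDK, BCAT1, BCAT2, DLD and IVD, of 11963 genes named by a single symbol on the array. All 16 of their probe sets, of 22215 tested, were taken by gene symbol. The genes were selected on knowledge of the pathway with the paired group differences of these same arrays in view. Their group differences and the calls on them are therefore a description of these arrays and not a test of the pathway.

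RNA came from cultures of the established human glioma line U251 (U251MG), 9 in all, each hybridised to 1 Affymetrix array and split evenly over 3 groups. The first group received a WT1 siRNA with Oligofectamine, the second a non-targeting (scrambled) siRNA with Oligofectamine, and the third the reagent Oligofectamine alone, so all groups were exposed to the transfection reagent. Both siRNAs were given at 100 nM. The cultures carry replicate numbers 1 to 3 in each group, the series calls them biological triplicates, and all are of 1 line.

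Breakdown starts with a transaminase, cytosolic BCAT1 or mitochondrial BCAT2, that passes the amino group to alpha-ketoglutarate and so makes glutamate and a branched-chain ketoacid. The mitochondrial branched-chain ketoacid dehydrogenase complex then removes carbon dioxide in a step that cannot be undone. Its decarboxylase is built of BCKDHA and BCKDHB, its core is the transacylase DBT, and DLD, which it shares with the pyruvate and alpha-ketoglutarate dehydrogenases, reoxidises the core. BCKDK phosphorylates BCKDHA and switches the complex off. IVD, isovaleryl-CoA dehydrogenase, takes the next step of leucine breakdown. BCAT1 is known for high expression in gliomas with wild-type IDH.

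With the WT1 siRNA 2 of the 4 probe sets of DBT, the complex core, were called lower against scrambled siRNA and 1 against reagent, while the means of the 12 probe sets of the other 7 genes lay within 0.23 of both controls on the log2 scale. DBT on 205371_s_at reached 58.2% of the level with scrambled siRNA and 62.2% of that with reagent. On 205369_x_at it reached 73.5% of the level with scrambled siRNA, and 82.9% of that with reagent, which did not pass (adjusted p = 0.137). The remaining DBT probe sets reached 91.4% and 107% of the level with scrambled siRNA, so the probe sets of DBT did not give 1 common change.

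The promoter of DBT is shown because the only group calls among the 8 genes were on DBT probe sets, and WT1 is a DNA-binding factor. Those calls were on 2 of the 4 DBT probe sets, and a direct action of WT1 on DBT was not tested. The 250 bases before its start site lie on the minus strand at chr1:100249835-100250084 (RefSeq, GRCh38.p14) and read 5′ to 3′:
DBT: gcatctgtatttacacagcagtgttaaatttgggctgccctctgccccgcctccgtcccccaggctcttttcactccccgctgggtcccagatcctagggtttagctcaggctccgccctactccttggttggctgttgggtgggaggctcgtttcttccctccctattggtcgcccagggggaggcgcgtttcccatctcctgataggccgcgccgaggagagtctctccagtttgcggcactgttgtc
The motifs GCGGGGGCG and GCGTGGGAG, forms of the zinc finger site of EGR proteins and WT1, were searched on both strands in windows from 250 bases before to 50 after a start site, each counted on its own even where matches overlap. RefSeq promoters were held for 7 of the 8 genes (all but BCAT2), 12 windows in all, and 0 of them contained either motif, so no base above is in capitals. Of 35116 promoter windows of that length, 5.07% held the first motif, 0.689% the second and 5.69% either. No match says only that these letters are not in these windows.

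WT1, the target, averaged 4.89 (log2) under its own siRNA on 206067_s_at, against 5.63 under scrambled siRNA and 6.18 under reagent. That is 60.0% and 41.0% of the controls (adjusted p = 0.00336 and 0.000619), and 216953_s_at gave 88.6% and 90.2% without passing (adjusted p = 0.42 and 0.516). WT1 was itself lower with scrambled siRNA than with reagent on 206067_s_at (68.4%, adjusted p = 0.0164). Array medians lay between 6.45 and 6.53. Of the glioma and astrocyte markers VIM and CD44 were brighter than at least 99.3% of probe sets on every array. NES was brighter than 78.3% to 89.4%, SLC1A3 than 67.4% to 81.8%, and GFAP than 31.9% to 85.3%. ALDH1L1 was brighter than 41.4% to 47.4%, S100B than 12.8% to 36.5%, and AQP4 lay among the dimmest 15.5%. Of markers of other cell types, the immune PTPRC and CD14, the endothelial CDH5, the epithelial EPCAM and CDH1 and the oligodendrocyte MOG were brighter than at most 21.0% on any array. AIF1, PECAM1, VWF, SYP, SNAP25 and MBP lay between 27.8% and 57.1%, and KRT8 between 59.3% and 73.3%.

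Levels below are log2 values per probe set, and a difference is the mean of 3 differences, each within a replicate number, with the standard error (SE) of a limma fit to all 9 arrays that holds the replicate number as a block. A probe set was called at an adjusted p under 0.05 over all 22215. Levels of different probe sets are not set against each other, since brightness depends on the probes. The suffix _x_at marks probe sets some of whose probes can bind other transcripts, and _s_at those whose probes match several transcripts, usually of 1 gene. In bulk RNA, fewer cells with a transcript and less transcript per cell cannot be told apart. The WT1 siRNA arrays serve in both of their comparisons, and each control in 2, so the comparisons are not independent.

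**Figure D1:**
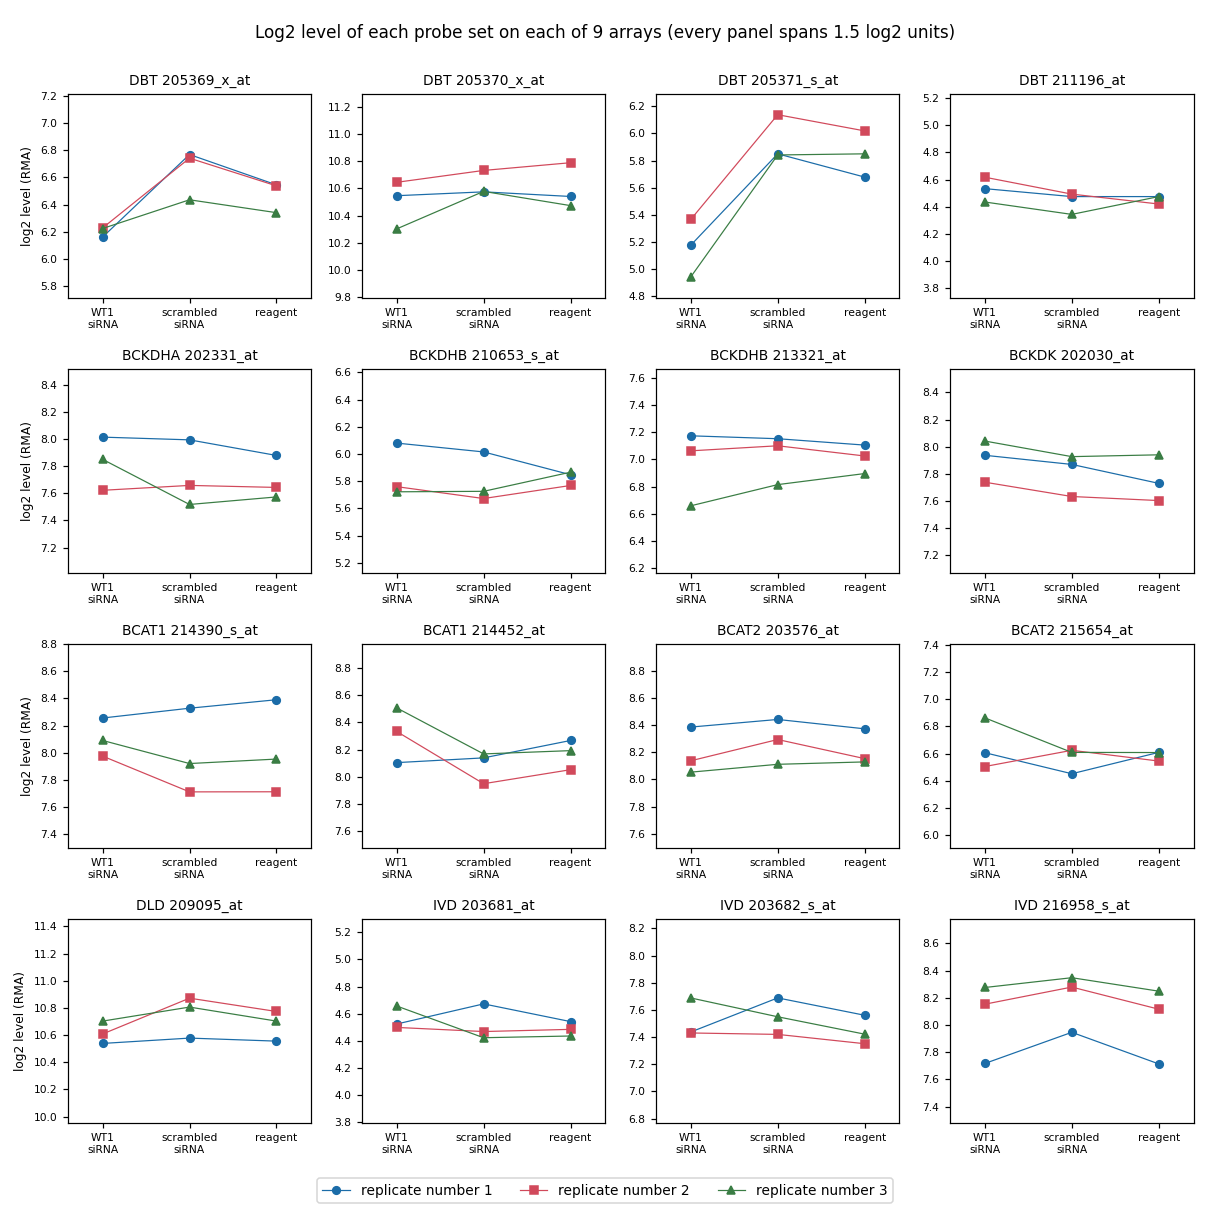
Log2 level of each of the 16 probe sets (vertical axis, all panels spanning the same number of log2 units) on the 9 arrays, with the WT1 siRNA, scrambled siRNA and reagent groups from left to right and lines joining arrays of a replicate number. All 3 WT1 siRNA arrays lie below all 6 control arrays in the panels of DBT 205371_s_at and DBT 205369_x_at.

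DBT, the transacylase that forms the core of the complex, had 4 probe sets. On 205371_s_at its log2 level was 5.18, 5.37 and 4.94 in the WT1 siRNA cultures 1, 2 and 3, against 5.85, 6.14 and 5.84 with the scrambled siRNA and 5.68, 6.02 and 5.85 with reagent. The 3 WT1 siRNA arrays were all below the 6 control arrays, and the control groups overlapped. The difference was −0.78 against scrambled siRNA (SE 0.077, 95% interval −0.95 to −0.61, adjusted p = 0.0021), made up of −0.67, −0.77 and −0.90 within replicate numbers 1, 2 and 3. Against reagent it was −0.69 (SE 0.077, interval −0.86 to −0.51, adjusted p = 0.00786), made up of −0.50, −0.65 and −0.91. DBT on this probe set was lower in 3 of 3 numbers in both comparisons. Between scrambled siRNA and reagent it differed by 0.09 (interval −0.08 to 0.27, adjusted p = 0.723), so the order of the group means was scrambled siRNA, reagent, WT1 siRNA, with the first pair not apart beyond their spread. On its arrays this probe set was brighter than 22.7% to 45.3% of all probe sets.

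On 205369_x_at the DBT level was 6.16, 6.23 and 6.22 with the WT1 siRNA, against 6.77, 6.74 and 6.43 with the scrambled siRNA and 6.54, 6.54 and 6.34 with reagent. The WT1 siRNA cultures were nearly level with each other (SD 0.0377, n = 3) and below every control culture, while number 3 was the lowest in both controls. The difference was −0.44 against scrambled siRNA (SE 0.078, adjusted p = 0.0193), in 3 of 3 numbers (−0.61, −0.51 and −0.21). Against reagent the difference of −0.27 (SE 0.078, interval −0.44 to −0.10) was also lower in 3 of 3 numbers and did not pass (adjusted p = 0.137). Scrambled siRNA itself lay above reagent by 0.17 in 3 of 3 numbers (interval −0.0005 to 0.35, adjusted p = 0.421), without passing. The difference against scrambled siRNA thus includes a higher level in that control than in reagent.

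The brightest DBT probe set, 205370_x_at, had 10.55, 10.65 and 10.30 with the WT1 siRNA, against 10.57, 10.73 and 10.58 with the scrambled siRNA and 10.54, 10.79 and 10.47 with reagent. Its groups overlapped, and its differences of −0.13 (interval −0.28 to 0.02, adjusted p = 0.38) and −0.10 (interval −0.25 to 0.05, adjusted p = 0.514) did not pass. A rule that takes the brightest probe set for a gene would therefore give DBT no call. The dimmest, 211196_at, lay between 4.34 and 4.62 on all 9 arrays, brighter than 10.9% to 16.3% of probe sets. Its differences were 0.09 against scrambled siRNA and 0.07 against reagent, and neither passed (adjusted p = 0.557 and 0.657). The 4 DBT estimates against scrambled siRNA thus spanned 0.87 log2 units, against 0.11 to 0.19 for the genes with 2 or 3 probe sets.

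Across the 9 arrays, after subtraction of each replicate number's mean, DBT 205371_s_at had a Pearson r of 0.83 with 205369_x_at, 0.81 with 205370_x_at and −0.58 with 211196_at, and the pair 205370_x_at and 205369_x_at had 0.48. These are descriptions over arrays that share the groups, with no test.

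Among the 16 probe sets, limma called 2 lower and 0 higher against scrambled siRNA (12.5%, beside 3.27% of all probe sets called in either direction and 1.94% called lower). Against reagent it called 1 lower and 0 higher (6.25%, beside 1.25% in either direction and 0.837% lower). All of these calls are DBT. Between scrambled siRNA and reagent it called 0 of 16 (1.09% of all probe sets). At an unadjusted p under 0.05 there were 4, 3 and 1 of 16 in the 3 comparisons, beside 16.4%, 15.1% and 11.9% of all probe sets. The DBT probe sets 205371_s_at and 205369_x_at were the 2 whose groups did not overlap against scrambled siRNA (6.67% of all probe sets) and against reagent (5.5%). The choice of the genes used these contrasts, so nothing is read from the counts. The median of the 16 differences was 0.00, 0.05 and 0.03 in the order above, and that of all probe sets 0.00, 0.01 and 0.01.

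All calls depended on the replicate number in the model. Those of 205371_s_at against reagent and of 205369_x_at also depended on single cultures. The call of 205371_s_at against scrambled siRNA passed in 11 of the 12 fits that left out arrays. Those that left out only a reagent array kept this difference at −0.78 and so changed only its SE and p. Without the replicate number as a block the fit called 0.018%, 0% and 0.0045% of all probe sets in the 3 comparisons and 0 of the 16 here. DBT 205371_s_at then had an adjusted p of 0.261 against scrambled siRNA and 0.678 against reagent at the same differences. Without the 3 arrays of number 2 both of its differences (−0.78 and −0.70) missed the threshold (adjusted p = 0.087 and 0.206), as did that against reagent without reagent replicate 2 (−0.70, adjusted p = 0.0721). The call of 205369_x_at against scrambled siRNA was lost without WT1 siRNA replicate 1 (adjusted p = 0.051) or 2 (0.0986), without scrambled replicate 1 (0.0953) or 2 (0.129), and without number 1 (0.0984) or 2 (0.284). Its difference stayed between −0.56 and −0.36 over the 12 fits that left out arrays.

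**Figure D2:**
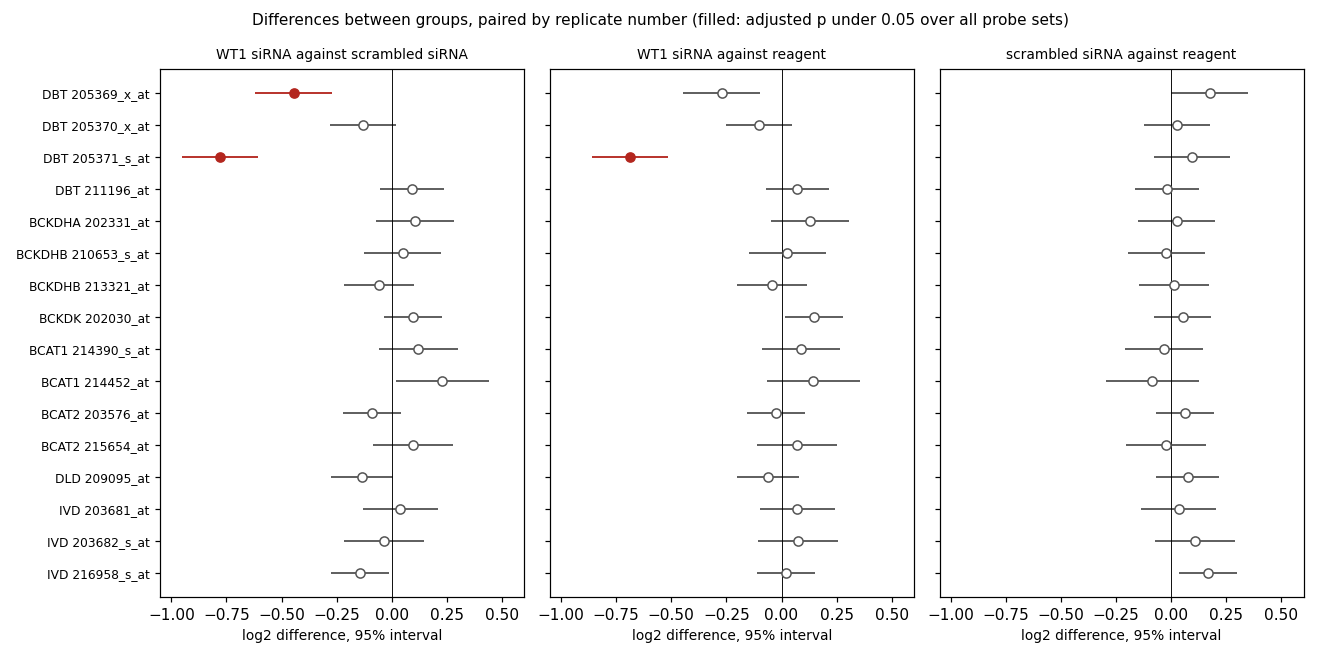
Log2 difference (horizontal axis) of each of the 16 probe sets in the 3 comparisons, paired by replicate number, with 95% intervals from the limma fit, where filled points have an adjusted p under 0.05. DBT 205371_s_at (−0.78 and −0.69) and DBT 205369_x_at (−0.44) are the filled points, and most other intervals include 0.

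The decarboxylase subunits did not pass in any comparison. BCKDHA, the alpha subunit that carries the regulatory phosphorylation sites, had 8.01, 7.62 and 7.85 with the WT1 siRNA, against 7.99, 7.66 and 7.52 with the scrambled siRNA and 7.88, 7.64 and 7.57 with reagent. Its groups overlapped, and the difference against scrambled siRNA of 0.11 (interval −0.07 to 0.28, adjusted p = 0.586) came mostly from number 3 (0.33, beside 0.02 and −0.04). BCKDHB, the beta subunit, differed by 0.05 (interval −0.12 to 0.22) and −0.06 (interval −0.22 to 0.10) on its 2 probe sets against scrambled siRNA. Against reagent the BCKDHB probe sets differed by 0.03 and −0.04, with adjusted p of 0.917 and 0.829. The −0.78 of DBT on 205371_s_at, the largest of the DBT differences, lay outside these intervals against scrambled siRNA. The −0.13 on 205370_x_at, the brightest DBT probe set, lay within that of BCKDHB 213321_at (−0.22 to 0.10) and below the others. The genes were chosen with these contrasts in view, so this is a description only.

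BCKDK, the kinase that turns the complex off, had 7.94, 7.74 and 8.04 with the WT1 siRNA, against 7.87, 7.63 and 7.93 with the scrambled siRNA and 7.73, 7.60 and 7.94 with reagent. Its level was higher with the WT1 siRNA in 3 of 3 numbers against both controls, by 0.10 (interval −0.03 to 0.23, adjusted p = 0.476) and 0.15 (interval 0.02 to 0.28, unadjusted p = 0.0303, adjusted p = 0.27). Neither difference passed. The groups overlapped, and the means of the 3 numbers spanned 0.311.

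DLD, the dihydrolipoamide dehydrogenase shared with the other ketoacid dehydrogenases, had 10.54, 10.61 and 10.70 with the WT1 siRNA, against 10.58, 10.87 and 10.81 with the scrambled siRNA and 10.56, 10.77 and 10.70 with reagent. It was lower than with scrambled siRNA in 3 of 3 numbers, by a mean of −0.14 (interval −0.28 to 0.01, adjusted p = 0.333), which did not pass. Number 2 carried most of that difference (−0.26). Against reagent DLD differed by −0.06 (interval −0.20 to 0.08, adjusted p = 0.71).

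BCAT1, the cytosolic transaminase, had the largest upward difference of the 16 against scrambled siRNA, which did not pass. On 214452_at its level was 8.10, 8.33 and 8.51 with the WT1 siRNA, against 8.14, 7.95 and 8.17 with the scrambled siRNA and 8.27, 8.05 and 8.19 with reagent. In numbers 2 and 3 the WT1 siRNA culture was the highest of its number, and in number 1 it was the lowest. The mean difference was 0.23 against scrambled siRNA (SE 0.0941, interval 0.02 to 0.44, adjusted p = 0.262) and 0.14 against reagent (adjusted p = 0.52). Without WT1 siRNA replicate 1 the first was 0.37 and passed (adjusted p = 0.0249), the 1 pass in 18 alternative fits. Without the whole of number 1 it was 0.36 and did not pass (adjusted p = 0.0571). The other BCAT1 probe set, 214390_s_at, split in the same way, with differences of −0.07, 0.26 and 0.17 against scrambled siRNA in numbers 1, 2 and 3 and −0.13, 0.26 and 0.14 against reagent. After subtraction of the number means the BCAT1 probe sets had an r of 0.95 over the 9 arrays, and of 0.39 as measured.

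BCAT2, the mitochondrial transaminase, differed by −0.09 (interval −0.22 to 0.04) on 203576_at and 0.10 (interval −0.09 to 0.28) on 215654_at against scrambled siRNA, with adjusted p of 0.515 and 0.641. Against reagent the values were −0.03 and 0.07 (adjusted p = 0.886 and 0.739). The 2 probe sets pointed apart within 1 gene by less than their intervals.

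IVD, the dehydrogenase of leucine breakdown, had 3 probe sets. On 216958_s_at its level was 7.72, 8.15 and 8.28 with the WT1 siRNA, against 7.95, 8.28 and 8.35 with the scrambled siRNA and 7.71, 8.12 and 8.25 with reagent. The scrambled culture was the highest in every number, so the difference was −0.14 between WT1 and scrambled siRNA (unadjusted p = 0.0367, adjusted p = 0.264) and 0.16 between scrambled siRNA and reagent (unadjusted p = 0.0193, adjusted p = 0.289). Neither passed, both rest on the same 3 scrambled arrays, and between WT1 siRNA and reagent the difference was 0.02 (interval −0.11 to 0.15). The other IVD probe sets differed by 0.04 and −0.03 against scrambled siRNA and by 0.07 each against reagent, and 203681_at lay among the dimmest 16.5% on every array.

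The replicate number was not part of the choice of the genes, and levels were tested between numbers with an F-test in the same limma model. The test called 10 of 16 probe sets, in all 8 genes (62.5%, beside 49.7% of all probe sets), a share near that of the array as a whole. The means of the numbers spanned 0.194 to 0.524 log2 units in the called probe sets and 0.0924 to 0.178 in the 6 others. IVD 216958_s_at had the smallest p, with mean levels of 7.79, 8.18 and 8.29 in numbers 1, 2 and 3 (adjusted p = 0.000298). BCAT1 214390_s_at had the widest span, 8.32, 7.80 and 7.99 (adjusted p = 0.00154), while BCAT1 214452_at did not pass (8.17, 8.11 and 8.29, adjusted p = 0.278). BCKDHA was highest in number 1 (7.96, 7.64 and 7.65, adjusted p = 0.0106), and BCKDK was lowest in number 2 (7.85, 7.66 and 7.97, adjusted p = 0.0051). DLD was lowest in number 1 (10.56, 10.75 and 10.74, adjusted p = 0.0462). Thus 5 of the 10 were highest in number 1, 3 in number 2 and 2 in number 3.

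A measure of RNA integrity moved with the number as well. The log2 signal of the ACTB control probe set at the 3′ end minus that at the 5′ end was 0.0507 to 0.0887 in number 1, 0.554 to 0.677 in number 2 and 0.26 to 0.505 in number 3. Within numbers 1, 2 and 3 it was 0.0773, 0.554 and 0.26 with the WT1 siRNA, against 0.0507, 0.677 and 0.46 with the scrambled siRNA and 0.0887, 0.617 and 0.505 with reagent. The WT1 siRNA array was thus the lowest of numbers 2 and 3 and lay between the controls in number 1. For GAPDH the same measure was −0.0249 to −0.00564 in number 1, 0.157 to 0.184 in number 2 and 0.0953 to 0.106 in number 3, and the WT1 siRNA array was the highest of each number (−0.00564, 0.184 and 0.106). The part of RNA integrity in the differences between numbers and between groups was not tested.

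**Figure D3:**
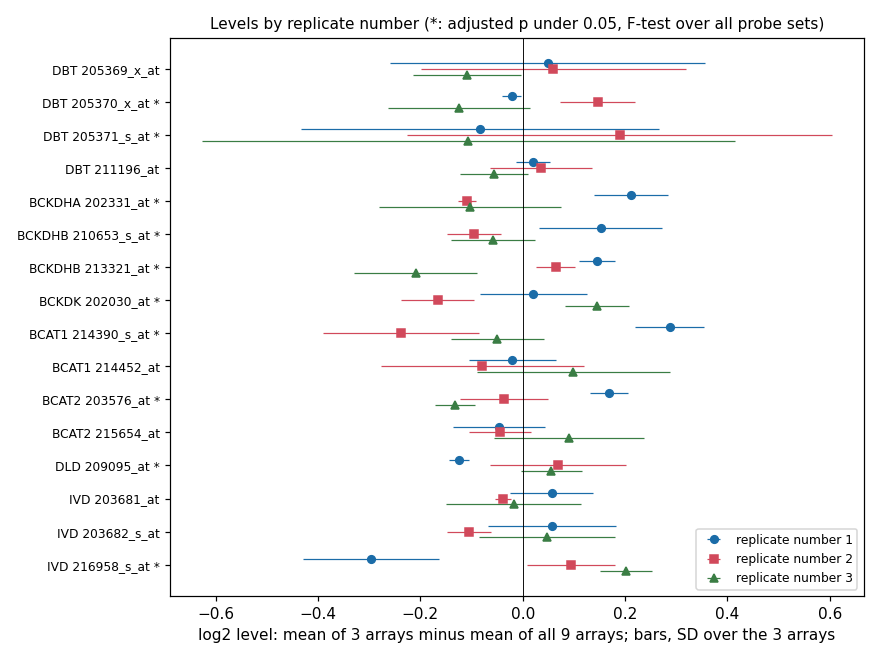
Mean log2 level of each probe set over the 3 arrays of a replicate number, as the difference from the mean of all 9 arrays (horizontal axis), with bars for the SD over the 3 arrays and a star where the F-test between numbers passed. BCAT1 214390_s_at (span 0.524) and IVD 216958_s_at (span 0.499) are farthest apart, and the wide bars of DBT 205371_s_at hold the difference between the WT1 siRNA and control arrays.

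Around these genes, 4 lists were taken: the later steps of leucine, isoleucine and valine breakdown, the phosphatase and amino acid carriers, the related ketoacid dehydrogenases with their kinases and phosphatases, and the enzymes that take up or pass on the nitrogen. Of 56 genes listed 44 were measured, by 71 probe sets. Against scrambled siRNA 4 of the 71 rose and 2 fell (8.45%, beside 3.27% of all probe sets), against reagent 0 rose and 1 fell (1.41%, beside 1.25%), and between scrambled siRNA and reagent 1 rose and 0 fell (1.41%, beside 1.09%). The 6 calls against scrambled siRNA fall on 5 genes, since GLUL was called on 2 probe sets. The lists were chosen with earlier results of these data known, so nothing is read from these counts. The median difference was 0.05, 0.04 and −0.01 in that order. Without the replicate block none of these calls was kept, and each was lost in some fits that left out arrays, as given with each gene.

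Of the later steps (14 of 20 genes measured, 23 probe sets) 1 probe set rose and 1 fell against scrambled siRNA. ACAD8, the isobutyryl-CoA dehydrogenase of valine breakdown, averaged 6.86 (log2, SD 0.351, n = 3) with the WT1 siRNA and 7.23 (SD 0.256, n = 3) with the scrambled siRNA, a fall of −0.38 (SE 0.0713, adjusted p = 0.0249) that passed in 5 of 12 fits without some arrays. Against reagent ACAD8 differed by −0.22 without passing (adjusted p = 0.184). ALDH6A1, the methylmalonate semialdehyde dehydrogenase of valine breakdown, had 6.14 (SD 0.0739, n = 3) with the WT1 siRNA and 5.36 (SD 0.314, n = 3) with the scrambled siRNA on 221589_s_at, a rise of 0.78 (SE 0.171, adjusted p = 0.0414) that passed in 3 of the 12. Against reagent the difference on this probe set was 0.44 (adjusted p = 0.262), and between scrambled siRNA and reagent −0.34 (adjusted p = 0.483), neither passing. The other 4 ALDH6A1 probe sets differed by 0.11 to 0.35 against scrambled siRNA and did not pass. AUH, the hydratase of the leucine branch, was higher with scrambled siRNA than with reagent (0.49, SE 0.0869, adjusted p = 0.0323, passing in 4 of the 12) and passed in neither comparison of the WT1 siRNA (−0.20 against scrambled siRNA and 0.29 against reagent). Genes of the same branch thus differed in direction.

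Of the related ketoacid dehydrogenases (17 of 18 genes, 25 probe sets) PDHA1 and PDK1 were called. PDHA1, the catalytic alpha subunit of pyruvate dehydrogenase, on 200979_at had 7.42 with the WT1 siRNA, against 7.79 with the scrambled siRNA and 7.72 with reagent (SD 0.22, 0.224 and 0.25, n = 3 each). It fell by 0.37 against scrambled siRNA (−0.37, SE 0.0546, adjusted p = 0.00906) and by 0.30 against reagent (−0.30, adjusted p = 0.0337), passing in 6 and 1 of the 12 fits. The other PDHA1 probe set differed by 0.01 and −0.02. PDK1, a kinase that inactivates pyruvate dehydrogenase, had 6.06 (SD 0.142, n = 3) with the WT1 siRNA and 5.71 (SD 0.147, n = 3) with the scrambled siRNA, a rise of 0.34 (SE 0.0689, adjusted p = 0.0305, passing in 4 of the 12). It differed by 0.31 against reagent without passing (adjusted p = 0.0676). Neither DLAT, the core transacylase of pyruvate dehydrogenase, nor DLST, that of alpha-ketoglutarate dehydrogenase, was called in any comparison. The 3 DLAT probe sets differed by −0.25 to −0.19 against scrambled siRNA and by −0.26 to −0.19 against reagent, with a smallest adjusted p of 0.0708.

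Of the nitrogen partners (6 of 9 genes, 9 probe sets) GLUL, glutamine synthetase, rose against scrambled siRNA on 2 of its 3 probe sets. Its mean level on 217202_s_at was 7.91 (SD 0.463, n = 3) with the WT1 siRNA and 7.46 (SD 0.395, n = 3) with the scrambled siRNA, a rise of 0.45 (SE 0.0708, adjusted p = 0.0123) that passed in 6 of the 12 fits. On 200648_s_at the rise was 0.35 (adjusted p = 0.0451, passing in 3 of the 12), and on the third probe set the difference was 0.28 (adjusted p = 0.208). Against reagent the GLUL probe sets differed by 0.07 to 0.21 and did not pass. Scrambled siRNA lay below reagent on all 3 GLUL probe sets, by −0.25 to −0.21, without passing (smallest adjusted p = 0.189). The rises against scrambled siRNA thus include a lower level in that control than in reagent. Of the phosphatase and carrier list 7 of 9 genes were measured, by 14 probe sets. All 7 encode amino acid carriers or a subunit of one, with SLC7A5 and SLC25A44 among the carriers. None of the 14 was called in the 3 comparisons, and their medians were 0.03, 0.03 and 0.04. PPM1K, the phosphatase of the complex, was not analysed here.

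**Figure D4:**
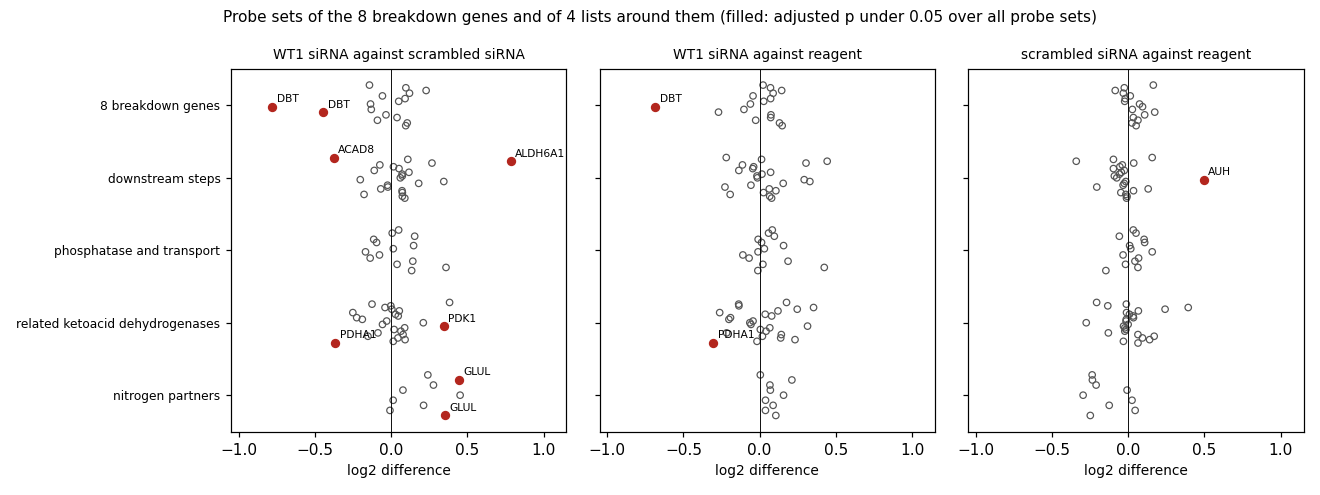
Log2 difference (horizontal axis) of each probe set of the 8 genes and of the 4 lists around them (rows) in the 3 comparisons (panels), where filled and named points have an adjusted p under 0.05. DBT (−0.78) and ALDH6A1 (0.78) are the outermost points against scrambled siRNA, in opposite directions.

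The genes whose pattern was most like that of DBT were ranked by Pearson r over the 9 arrays, among all other genes with a single symbol. For 205370_x_at, the brightest probe set, HNRNPK (r = 0.975), GBP1 (0.967) and MRPL57 (0.967) led as measured, and OAT (0.975), EIF2AK1 (0.968) and RAB31 (0.959) after subtraction of each number's mean. For 205371_s_at, taken after its values had been seen, NECAP1 led both ways (0.992 as measured and 0.998 within numbers), followed within numbers by PAFAH1B1 (0.994), RRN3 (0.99) and PLPBP (0.99). For BCAT1 on 214452_at CTNNA2 led as measured (0.97) and SDK2 within numbers (0.987). The leading genes of the 2 DBT probe sets did not coincide, and the 9 arrays share 3 groups and 3 numbers. Each r is the highest of a search over all these genes. High r also led for 205370_x_at and BCAT1 214452_at, which had no call between groups. Shared regulation was not tested.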

How the data were processed

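The deposited table holds log2 values for each probe set that the authors made by RMA, per the labels, a method that corrects background, normalises across arrays and sums up probes. For its software, chip definition and genome build nothing is stated in the sources used. The table held 22277 probe sets with 0 missing values, of which 62 control probe sets were left out of the tests. Symbols came from the platform annotation, updated by gene ID.

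Groups and replicate numbers came from the sample titles. All 22215 probe sets were fitted with limma 3.58.1 in R 4.3.3 (lmFit, contrasts.fit, eBayes) on all 9 arrays, with group and replicate number as fixed terms, two-sided, with Benjamini-Hochberg adjustment over all probe sets in each comparison. Numbers were compared by the F-test of that model. The labels do not say what the replicate numbers mark. Arrays of equal number were alike: deviations from group means correlated at 0.647 to 0.849 in the 9 pairs of equal number in different groups. In the 18 others they correlated at −0.611 to −0.0311. Deviations within a group cancel out, so the negative values follow from the centring once equal numbers correlate and add no support. P-values measure the spread left between cultures paired by number, and precision is limited by the number of arrays. The procedure was also run on simulated data with noise drawn independently for each probe set and array. The outcome is not given here, and no result rests on it. Figures were drawn with matplotlib 3.10.9.

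The 8 genes and the lists were chosen with earlier results of these data known. All probe sets of the 8 genes are named, WT1 as the target, of the lists each gene called (up to 6 per list and comparison), and up to 5 genes of like pattern. Alternatives left out the block, made it random, centred arrays on their medians, left out the dimmest 25% of probe sets, fitted 2 groups alone, used an intensity trend with a robust prior, left out each array or number, or averaged a gene's probe sets.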

Additional observations from a re-analysis of the deposited data

How the results depend on the processing

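The paired counts for the 16 probe sets (2, 1 and 0 called against scrambled siRNA, against reagent, and between controls) became 0, 0 and 0 with no replicate block. With only the 2 groups of a comparison, and the replicate block, they became 1, 0 and 0. They did not change with a random block, median centring, the dim filter or the trend and robust prior. Leaving out arrays or numbers gave 0 to 2, 0 to 1 and 0, and 4 to 10 of 16 between numbers (10 with all arrays). Without WT1 siRNA replicate 1 the first count was again 2, but of DBT 205371_s_at and BCAT1 214452_at. Over 18 alternatives DBT 205371_s_at passed in 16 (against scrambled siRNA, highest adjusted p 0.261) and 14 (against reagent, highest 0.678). DBT 205369_x_at passed in 10 (against scrambled siRNA, highest 0.543). No called difference of the 8 genes turned its sign, and nothing is read from that. Their differences within numbers were all negative, and several alternatives leave the difference itself unchanged. Averaging the 4 DBT probe sets gave −0.32 and −0.25, against −0.13 and −0.10 for the brightest. Over all probe sets the blocked fit called 726, 277 and 242, with no replicate block 4, 0 and 1, with a random block 356, 118 and 88, with the trend and robust prior 1091, 595 and 485, with 2 groups alone 390, 3 and 535, and without number 2 it called 2, 0 and 3. The replicate numbers, with 3 arrays each, limit every call here: the fits without number 2 called 0 of the 16 in each group comparison.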
